A study of Mus musculus with 8 samples.

Results

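Wide accessible domains are the autosomal cKO peaks that span at least 5000 bp, and 482 of the 28553 autosomal peaks of the *Arid1a* cKO list (1.69%) were that wide. The rows of the cKO list were collapsed by peak name, from the lowest start to the highest end, and members were chosen by this cKO width alone, on the 19 autosomes. Together the domains spanned 4.33 Mb, or 12.1% of the bases in autosomal cKO peaks. Their width had a median of 7016 bp (quartiles 5761 and 9300 bp), and the range ran from 5005 to 62524 bp. The WT list held 141 autosomal peaks of this width among 18345 (0.769%). These widths selected the members, so they are a description and carry no test. The 3 peaks just outside the threshold lay at *Yy1* (4985 bp), *1700010I14Rik* (4986 bp) and *Nudt16l1* (4998 bp), and the 3 just inside lay nearest *Gm47133* (5005 bp), *Lmtk3* (5017 bp) and *Git1* (5019 bp).

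The peaks came from ATAC-seq, in which a transposase cuts accessible DNA and leaves sequencing adapters, on pachytene spermatocytes of CD1 background mice, with 4 libraries per genotype and 100000 cells per library. *Arid1a* cKO males were *Arid1a* fl/fl; *Stra8-Cre* Tg/0, and *Arid1a* WT males were *Arid1a* fl/fl or *Arid1a* fl/+ without the transgene. *Stra8-Cre* acts in the male germ line from spermatogonia on, and deletion was incomplete, so the cKO cells included escapers that kept ARID1A. Cells were pooled from several adult males by Sta-Put sedimentation and cryopreserved, and nothing says that the libraries of a genotype came from separate animals. The study asked how ARID1A shapes accessibility in these cells, and its 4 libraries per genotype entered 1 peak list, so no difference below has a test. Intervals in parentheses are at 95%, cover counting error over regions only, and treat neighbouring regions as independent.

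ARID1A is a subunit of the BAF form of the SWI/SNF chromatin remodelers, which slide and evict nucleosomes. Accessible DNA is mostly found as short nucleosome-depleted stretches at promoters and enhancers, and accessibility over many kilobases is known from very actively transcribed genes and from large regulatory clusters. Pachytene spermatocytes transcribe a large set of testis genes, many of them used later in sperm, and long noncoding precursors of piRNAs, a programme in which the MYB factor MYBL1 takes part. The domains were not matched with a catalogue of piRNA loci.

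The sequences below are start regions of long noncoding genes in very wide domains, shown because the reference summit lay near such a start. The start nearest the summit was taken in the 4 widest domains and in the 4 widest with long noncoding genes only (leaving out those at *AC140207.2* and *Gm16090*), and the 4 of these 8 windows whose start lay within 1000 bp of the summit are printed. Each is 300 bases of GRCm38 (RefSeq sequence), read 5′ to 3′ on the strand of the gene, from 250 bases before an annotated start to 50 bases from it on. Capitals mark matches, on either strand, to CAGTTG (the core bound by MYB factors, which also fits the E-box pattern), GGGCGG (the GC box), the CCAAT box and the TATA motif, spelled TATAAA. The CRE (TGACGTCA) and NRF1 motifs were also searched and had no match here. *Gm10505* is at chr17:27324956-27325255 (plus strand), *1700041B01Rik* at chr15:78670535-78670834 (plus), *Gm36617* at chr15:59275146-59275445 (plus) and *1700042G15Rik* at chr4:57364243-57364542 (minus).
Gm10505: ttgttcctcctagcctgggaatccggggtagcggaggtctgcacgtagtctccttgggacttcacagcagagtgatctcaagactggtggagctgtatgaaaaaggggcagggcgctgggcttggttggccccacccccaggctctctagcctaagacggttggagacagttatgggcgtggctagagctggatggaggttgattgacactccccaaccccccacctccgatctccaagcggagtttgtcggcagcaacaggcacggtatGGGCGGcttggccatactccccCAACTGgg
1700041B01Rik: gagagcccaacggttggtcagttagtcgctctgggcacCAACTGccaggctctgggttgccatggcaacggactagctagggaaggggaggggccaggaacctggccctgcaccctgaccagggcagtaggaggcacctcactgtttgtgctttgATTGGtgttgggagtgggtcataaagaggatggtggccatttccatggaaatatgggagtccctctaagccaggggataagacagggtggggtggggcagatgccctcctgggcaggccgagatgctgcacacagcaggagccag
Gm36617: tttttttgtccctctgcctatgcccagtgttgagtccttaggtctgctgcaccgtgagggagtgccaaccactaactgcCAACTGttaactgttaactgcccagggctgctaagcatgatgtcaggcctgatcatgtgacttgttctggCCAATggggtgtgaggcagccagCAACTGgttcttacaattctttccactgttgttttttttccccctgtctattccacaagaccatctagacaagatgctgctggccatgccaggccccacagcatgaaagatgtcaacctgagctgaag
1700042G15Rik: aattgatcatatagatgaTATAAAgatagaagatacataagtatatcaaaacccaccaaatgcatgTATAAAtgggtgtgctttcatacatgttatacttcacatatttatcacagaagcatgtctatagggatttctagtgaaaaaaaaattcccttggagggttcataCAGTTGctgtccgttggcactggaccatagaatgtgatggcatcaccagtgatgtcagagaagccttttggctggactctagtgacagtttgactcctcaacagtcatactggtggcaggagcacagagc
Each of these 4 windows held the MYB core on one strand or the other. The 4 windows of the same choice that are not printed had starts at *Dnah8*, *Aym1*, *Gm6567* and *Fam174b*, which lay 14544, 17118, 3180 and 17008 bp from the summit, and no MYB core was among their letters. Over all 31 domains with the summit within 1000 bp of a long noncoding start, 11 windows held the core (35.5%). This count was added after the printed windows were seen and includes them, and *D130017N08Rik* and *Gm14244* were among those without it. At protein-coding starts within 1000 bp of a domain summit, 37 of 255 windows held it (14.5%). Such windows were not taken in other cKO peaks, so the 35.5% has no background of its own kind. A match is a description of the letters and not a bound site.

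Over all genes, the share of windows with the MYB core was close to the background in domains, with few windows in the widest ones. One window was taken per gene at its outermost annotated start, which need not be the window printed above. The core was in 22 of 117 windows of long noncoding genes that start in a domain (18.8%, 12.8 to 26.8), against 15.1% of all 9421 autosomal long noncoding genes and 14.0% of the 1932 whose window lay inside any cKO peak. In domains of at least 20 kb it was in 6 of 13 such windows (46.2%, 23.2 to 70.9), which fell in 5 domains, and this width was chosen after the values were seen. For protein-coding genes the core was in 45 of 332 windows inside domains (13.6%, 10.3 to 17.7), against 12.4% of all 20802 and 10.1% of the 10347 inside any cKO peak. GC boxes were in 64.2% of these coding windows (58.9 to 69.1), close to the 65.9% of coding windows inside any cKO peak and above the 43.7% of all coding windows. CCAAT was in 35.6% and TATAAA in 14.0% of all long noncoding windows, so both are frequent in windows of this length.

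The widest domain spanned 62524 bp (62.5 kb) of *Dnah8*, which encodes an axonemal dynein heavy chain of the sperm flagellum, at chr17:30639816-30702339. It lay over 17 WT peaks that covered 73.4% of it, more WT peaks than under any other domain. In the cKO libraries one stretch of 55.2 kb was called in all 4, whereas the longest stretch called in all 4 WT libraries was 5.76 kb. The second, 51.2 kb at chr17:27299465-27350687, lay over the long noncoding genes *Gm10505* and *Gm49793* and over 15 WT peaks, which covered 80.9%. Its summit was 17 bp from the *Gm10505* start printed above, and the domain reached 25741 bp upstream and 25481 bp downstream of that start. So the start sat near the middle of the domain.

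The other 8 of the 10 widest domains were between 30.5 and 42.5 kb. A domain of 42.5 kb held *Aym1* and *Mir7230* on chr5, and it was 81.8% covered by 8 WT peaks. One of 42.2 kb lay over *1700041B01Rik* and *Elfn2*, and it differed from the others in that all of it was called in every cKO library. It also had the longest stretch called in every WT library, 18.5 kb. At chr6:127779378-127817334 a domain of 38.0 kb held no protein-coding or long noncoding gene, only *Gm42811* and *Mir7233*, and its summit was 26898 bp from the nearest start, that of *Prmt8*. A domain of 31.7 kb over *Gstt2* (a glutathione S-transferase) and *Mif* (a cytokine) lay over only 2 WT peaks, which covered 91.1% of it. The remaining 4 lay at *Mroh4* (33.8 kb), at *Cwc22* (32.0 kb) and in the *Dnah8* region (37.8 and 30.5 kb).

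Domains were more enriched than most peaks, but among wide peaks enrichment and width were only loosely linked. The deposited fold enrichment (fragments stacked at the summit over a constant level for the whole library, each raised by 1) had a median of 13.9 in domains (12.9 to 15.4), against 4.91 in all autosomal cKO peaks and 13.6 in the 3523 peaks from 2 kb to under 5 kb. Of the 482 autosomal cKO peaks with the highest −log10 q (the false discovery score that the peak caller gives), 57 were domains (11.8%), against 1.69% of all autosomal cKO peaks. Spearman's rho of width and fold over the 482 domains was 0.0684, given as a description, since domains share a library and neighbours are not independent. The highest fold was at the 32.0 kb domain of *Cwc22* (a spliceosome-associated protein), at 74.6 with a −log10 q of 690.8, and 11 WT peaks covered 62.4% of it. The longest stretch of this domain called in all WT libraries was 2.62 kb, against 31.9 kb in all cKO libraries.

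The next 9 domains by −log10 q were 6.01 to 10.5 kb wide, so none was among the 10 widest. They included 2 over *Cic*, which encodes an HMG-box repressor (fold 45.7 and 39.9), and 1 each over *Mxd4*, a MAX-dimerization protein (46.8), *Ptbp1*, a splicing repressor (40.4), *Prdm10*, a zinc finger protein (41.2), *Cuta* (45.8) and *Btbd9* (41.6). One lay inside *Nuggc*, 20151 bp from its start (65). The last, nearest *Gm40988* (59.4), overlapped no annotated gene, and only 33.4% of its 50-mers occurred once in the reference, so reads could be placed there at more than one copy. The *Cuta* domain was almost wholly under 1 WT peak (99.0%), while the first *Cic* domain was 57.3% covered by 5.

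Nearly every domain lay over WT peaks, and most lay over several. Of the 482, 343 shared bases with 2 or more WT peaks (71.2%, 67.0 to 75), 189 with 3 or more and 46 with 5 or more, whereas 137 lay over 1 WT peak. The background was 3.07% of all autosomal cKO peaks over 2 or more WT peaks and 12.3% of those from 2 kb to under 5 kb, and a wider interval has more room for peaks. A domain made up 343 of the 878 cKO peaks that lay over 2 or more WT peaks (39.1%). In these 343 the widest gap between neighbouring WT peaks had a median of 1082 bp (975 to 1196), and the longest was 5491 bp. Of the 1230 different WT peaks below domains, 703 had a −log10 q under 10 (57.2%), against 44.9% of all autosomal WT peaks. With only peaks of at least 10 in both lists, 19.4% of domains lay over 2 or more WT peaks and 12.8% over none.

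WT peaks covered a median of 67.3% of a domain (64.5 to 69.6), with quartiles of 53.4 and 80%, near the median of 63.5% in cKO peaks from 2 kb to under 5 kb and above the 36.7% of all autosomal cKO peaks. All domains but 8 were wider than every WT peak below them (474, 98.3%), but so were 95.5% of all autosomal cKO peaks, and members chosen for their width in the cKO list tend to be the wider. A WT peak of at least 5000 bp lay below 127 domains (26.3%), against 0.504% of all autosomal cKO peaks. The WT list was also read with peaks chosen by WT width, though a domain is still defined by cKO width. Of its 141 peaks of at least 5000 bp, 137 shared bases with a domain (97.2%, 92.9 to 98.9). At 129 of the 141 (91.5%, 85.7 to 95.1) the widest cKO peak was wider than the WT peak, and the median share covered by cKO peaks was 100%. The reverse, a WT peak over 2 or more cKO peaks, was seen at 10 of the 141 (7.09%, 3.9 to 12.6). Of all 18345 autosomal WT peaks, 1230 shared bases with a domain, a far smaller share, and a wider peak has more room to do so. The other shares are not set beside those of all autosomal WT peaks, so they are not shown to be particular to wide WT peaks.

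Only 4 WT peaks of at least 5000 bp met no domain. They lay over *Actb*, the cytoplasmic actin gene (5844 bp, with 2 cKO peaks of at most 3849 bp below), *Ddx54* with *Cfap73* (6035 bp, at most 3850 bp), *Cactin* with *Pip5k1c* (5116 bp, under 1 cKO peak of 4983 bp) and *Gm26754* (5551 bp, at most 3416 bp). The background pileup behind the fold values was 5.11 fragments per base in the cKO list and 4.33 in the WT list, a ratio of 1.18. Its part in the widths was not tested, and the depth of the other libraries is unknown.

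Just 2 domains shared no base with a WT peak (0.415%, 0.114 to 1.5), against a background of 43% of all autosomal cKO peaks. A wider interval has more room to meet a WT peak. Among all autosomal cKO peaks of at least 4000 bp, domains included, 8 of 760 met none (1.05%), so a low share is not shown to be particular to domains. One of the 2 domains, chr2:92553857-92559072, overlapped no gene, was called along its whole length of 5216 bp in all cKO libraries and had a fold of 5.24. The other, chr2:153447987-153457015, lay over *Nol4l*, was 9029 bp wide and had the lowest fold of all domains, 3.93. The 8 domains with the next lowest WT coverage had 1.45 to 13.5% of their bases under WT peaks. They lay over *Uck2*, *Chst1*, *Gm21221*, *Cacna1h* and *CT025671.4*, over *Gm49322* with *Adat3* and *Scamp4*, over *Gm2762* with *Gm43262*, and on chr9, 53580 bp from the *C2cd4b* start. Their folds ran from 4.25 to 5.89, all below the lower quartile of the domains (8.22).

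Most of the length of the domains was called in every cKO library. The methods say that overlaps between libraries were taken, and the rows, of which at most 3 share a base, were read as the peaks of 1 library cut to their overlap with each of the other 3. Under this reading, which no source states, 3 rows over a base mean a call in all 4 libraries. All 482 domains had bases called in every cKO library, and the share of a domain called in all 4 had a median of 94.6% (93.7 to 95.5) and a lowest value of 31.4%. The median was 89.3% in cKO peaks from 2 kb to under 5 kb and 81.4% in all autosomal cKO peaks. The longest stretch called in all 4 was at least 5000 bp in 346 domains (71.8%, 67.6 to 75.6), with a median of 6070 bp (5751 to 6354). The same measure in the WT libraries, cut to the bounds of the domain, had a median of 2218 bp (2048 to 2437). It reached 5000 bp in 49 domains (10.2%, 7.78 to 13.2). Over all autosomal cKO peaks the share was 0.172%, but these are the same 49, since no narrower peak can hold such a stretch. The cKO stretch was the longer in all but 1 domain, and where the WT stretch was above 0 (466 domains) it was longer by a median factor of 2.79. The members were chosen for cKO width and WT stretches were cut at the domain edges, and both favour the longer cKO stretch. Chosen by WT width instead, 51 of the 141 WT peaks of at least 5000 bp (36.2%, 28.7 to 44.4) held a stretch of that length in all 4 WT libraries. The depth of the libraries behind these shares is unknown.

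**Figure D1:**
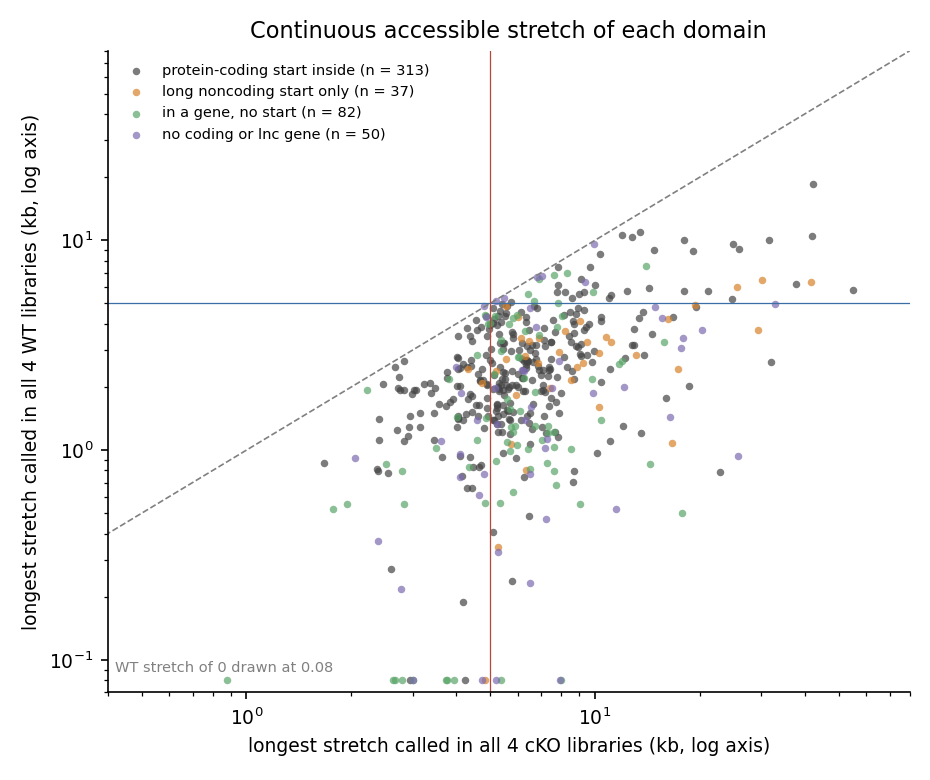
Longest stretch of each of the 482 domains called in all 4 cKO libraries (x axis, kb, log scale) and in all 4 WT libraries (y axis, kb, log scale), coloured by what the domain overlaps. WT stretches are cut to the bounds of the domain. Red and blue lines mark 5 kb and the dashed line equal lengths. All points but 1 lie below the dashed line, 346 lie at or beyond the red line and 49 at or above the blue one, and 16 domains without such a WT stretch are drawn at 0.08 kb.

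WT peaks were found in the interior of the domains and were scarcer at their edges, which are the ends of cKO calls. These measures were not taken in other cKO peaks, so they are not shown to be particular to domains. Of all autosomal cKO peaks, 95.5% were wider than every WT peak below them. The WT list had a peak at the cKO summit in 457 domains (94.8%, 92.5 to 96.5), and all WT libraries called the summit base in 432 (89.6%). The summit of the strongest WT peak lay a median of 170 bp from the cKO summit (134 to 202, n = 480), and within 1000 bp in 78.8%. Both outermost bases were free of WT peaks in 356 domains (73.9%, 69.8 to 77.6), and in 11 both lay under one. Along 20 equal bins, WT peaks covered on average 76.1% of the eighth bin, but 28.8% and 31.8% of the outermost bins. The cKO libraries also thinned out at the edges, where 70.2% and 69.6% of the bases were called in all 4, against 96.7% at most inside.

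**Figure D2:**
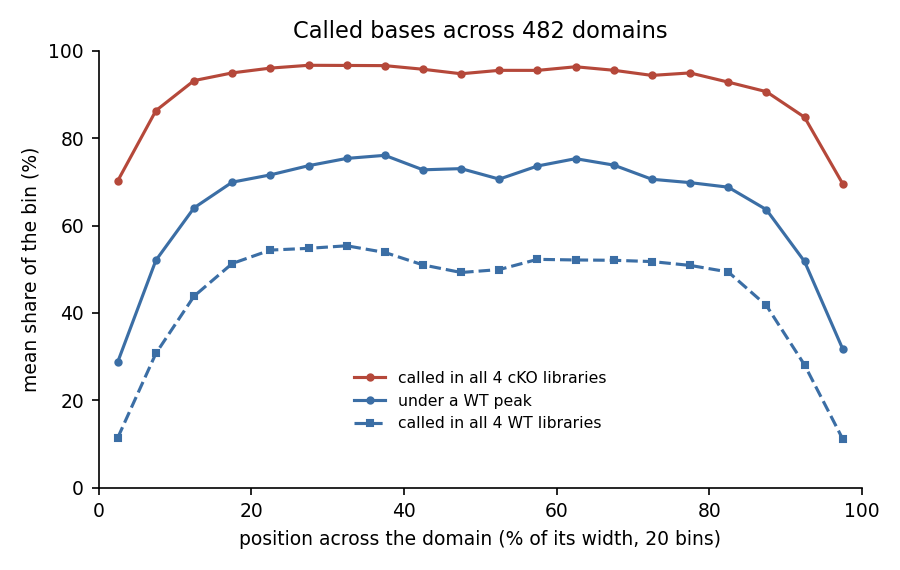
Mean share of each of 20 bins across 482 domains (x axis, position as percent of the width in genome order) that was called in all 4 cKO libraries (red), lay under a WT peak (blue, solid) or was called in all 4 WT libraries (blue, dashed), in percent. WT coverage is 28.8% in the first bin, 76.1% in the eighth and 31.8% in the last, under the cKO line in every bin.

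Most domains lay at protein-coding genes. A protein-coding gene was overlapped by 390 domains (80.9%), against 69.5% of all autosomal cKO peaks and 84.6% of those from 2 kb to under 5 kb. A long noncoding gene was overlapped by 144 (29.9%, 26.0 to 34.1), against 13.6% of all autosomal cKO peaks and 18.9% of those from 2 kb to under 5 kb. A long noncoding start was inside 108 (22.4%), against 7.0% of all autosomal cKO peaks and 13.5% of the narrower set. A long noncoding gene free of protein-coding genes was overlapped by 12.2% of domains, 5.89% of all autosomal cKO peaks and 7.07% of the narrower set. A transcription start of any gene was inside 367 domains (76.1%, 72.1 to 79.7), against 43.7% of all autosomal cKO peaks but 74.9% of those from 2 kb to under 5 kb. Per length, starts were sparser, with a median of 3.01 start positions per 10 kb against 8.58 in the narrower peaks. Starts on both strands were inside 118 domains (24.5%, background 8.22%), and a whole gene lay inside 190 (39.4%, background 2.82%), as wide intervals can hold more. Exons made up 25.9% of the domain bases, introns 40.5% and sequence outside genes 33.6%, close to the 26.0, 39.7 and 34.2% of all autosomal cKO peaks.

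The reference summit was within 1000 bp of a start in 286 domains (59.3%, 54.9 to 63.6), against 46.4% of all autosomal cKO peaks and 70.6% of those from 2 kb to under 5 kb. These 286 reached a median of 3082 bp (2480 to 3565) upstream of the start and 4076 bp (3860 to 4597) downstream of it. The domain reached further downstream in 57.3% (51.6 to 62.9), so both sides of the start were usually included. At 92 domains (19.1%) the summit was more than 10 kb from any start of a protein-coding or long noncoding gene, against 27.9% of all autosomal cKO peaks and 12.9% of those from 2 kb to under 5 kb.

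By what they hold, the domains fell into 4 groups, a division made after the values were seen. A protein-coding start here is any annotated transcript start of a protein-coding gene. Starts of transcripts that are themselves protein-coding lay in 284 domains. The 313 with a protein-coding start inside had the highest median fold (18.8, 17.3 to 19.8) and GC content (53.7%, 53.2 to 54.3). The 37 with a long noncoding start only were the widest group, with a median of 8868 bp (7351 to 11191), and had a median fold of 13.6 (10.6 to 15.7) and a GC content of 48.1% (47.1 to 49.1). In the 82 that lay in a gene without a start the median fold was 7.36 (6.55 to 8.18), and in the 50 without such a gene it was 8.59 (7.04 to 9.98). WT peaks covered a median of 68.6, 71.6, 59.3 and 67.6% in these 4 groups, with intervals that overlapped (65 to 71.2, 63 to 76.9, 54.3 to 67.3 and 54.2 to 75.3). Coverage by WT peaks thus varied less between the groups than enrichment did.

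**Figure D3:**
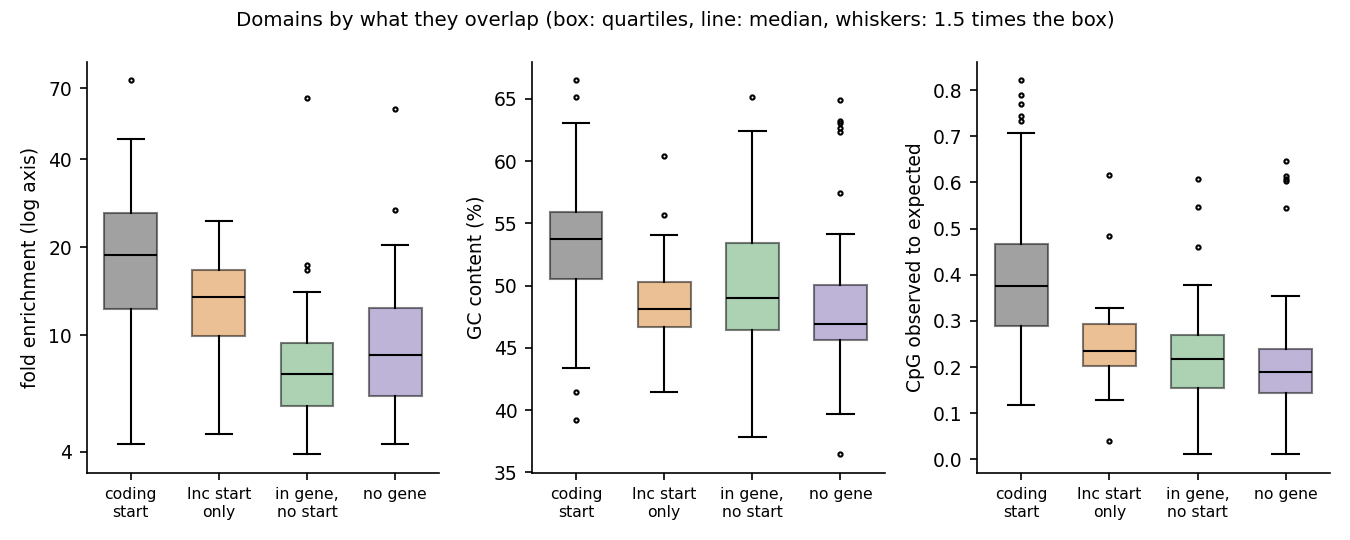
Fold enrichment (log axis), GC content (percent) and ratio of observed to expected CpG of domains with a protein-coding start inside (n = 313), with a long noncoding start only (n = 37), in a gene without a start (n = 82) and without a protein-coding or long noncoding gene (n = 50). Boxes give quartiles and medians, and domains with a coding start are the highest of the 4 groups in each panel (medians 18.8, 53.7% and 0.377). A start is any annotated transcript start of a gene of that type.

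Long noncoding genes stood alone in a set of domains. In 33 domains every overlapped gene was long noncoding (6.85%, against 5.45% of all autosomal cKO peaks). The widest was 29.5 kb over *Gm6567* and *4933435G04Rik*, with 8 WT peaks covering 67.2% and a stretch of 29.4 kb called in all cKO libraries against 3.75 kb in all WT libraries. *Gm36617*, whose start is printed above, lay in a domain of 24.5 kb (6 WT peaks, 68.7%), 130 bp from the summit. *1700042G15Rik* lay in a domain of 13.3 kb that 7 WT peaks covered by 49.8%, with its start 51 bp from the summit. In the WT libraries the longest stretch there was 2.17 kb, and in the cKO libraries 8.56 kb.

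The other domains of this kind among the 10 widest were at *AC140207.2* (25.7 kb), *Gm16090* (14.0 kb), *Gm10619* (13.3 kb), *Gm13817* (12.6 kb), *D130017N08Rik* (11.2 kb), *Gm14244* (10.7 kb) and *Gm21388* (10.6 kb). At *Gm13817*, *D130017N08Rik* and *Gm14244* the start was 77, 132 and 85 bp from the summit, and WT peaks covered 81.4, 81.2 and 78.4%. *Gm10619* was the least covered, with 33.2%. The *Gm16090* domain had a GC content of 65.1% and only 41.1% of its 50-mers were unique, so its position is uncertain. Of the 9426 autosomal long noncoding genes, 147 were overlapped by a domain (1.56%), and 98 of these for at least 50% of their length.

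Domains also held annotated microRNA genes, and those with names between *Mir7210* and *Mir7242* recurred. Of the 2054 autosomal miRNA genes, 39 were overlapped (1.9%). Of the 34 genes named *Mir72* and 2 more digits, 14 were overlapped, 9 of them in domains of at least 20 kb, against 25 of the other 2020 (1.24%). They are not independent, since several pairs share a domain, and the name pattern was picked after the values were seen. The genes were *Mir7210*, *Mir7214*, *Mir7215*, *Mir7216*, *Mir7217*, *Mir7218*, *Mir7221*, *Mir7222*, *Mir7223*, *Mir7230*, *Mir7233*, *Mir7234*, *Mir7241* and *Mir7242*. The mature sequences of those in the 5 widest domains follow (RefSeq, GRCm38.p6), shown to identify what is annotated there, with the seed (bases 2 to 8) in capitals.
mmu-miR-7214-3p: cUCAGUCCugaccccuugagcgca
mmu-miR-7216-5p: uGGAGAGCuggcagaggacccaga
mmu-miR-7216-3p: uGGAAUUUggucuuuuccggc
mmu-miR-7230-5p: aGACUGCUguuucucugaguggc
mmu-miR-7230-3p: uUGAGUUGagacugucaguaggu
mmu-miR-7233-3p: uAUUGUCUgccuuuaggucuac
None of these 6 mature sequences shared its seed with another. Other miRNA genes in domains were *Mir124a-3*, *Mir92b*, *Mir191* with *Mir425*, *Mir195a* with *Mir497*, *Mir328* and *Mir449c*, and all of these but *Mir124a-3* shared their domain with a protein-coding start.

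Of the 20807 autosomal protein-coding genes, 572 were overlapped by a domain (2.75%) and 415 had a start inside one (1.99%). Among 36 spermatid and sperm genes 5 were overlapped (13.9%), all with a start inside. *Prm2* and *Tnp2*, which encode a protamine and a transition protein that package sperm DNA, shared a domain of 8599 bp with *Prm3*. It had a fold of 32.4, and 3 WT peaks covered 80.1% of it. That domain was called along its whole length in all cKO libraries, and its longest stretch called in all WT libraries was 5332 bp. *Odf2*, an outer dense fibre gene, had a domain of 5793 bp with a fold of 37.1. *Ldhc*, the testis lactate dehydrogenase, had 2 domains of 7853 and 10439 bp, with 87.3 and 65.2% under WT peaks. *Ldhc* was also the 1 of 12 pachytene marker genes in a domain (8.33%).

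Of 28 piRNA pathway genes 3 were overlapped (10.7%, against 2.75% of all autosomal protein-coding genes). *Pld6*, a mitochondrial phospholipase of piRNA biogenesis, lay wholly inside a domain of 7770 bp (fold 21.4, 4 WT peaks, 64.3%). The Tudor domain gene *Tdrd5* had its start in a domain of 5081 bp (fold 18.2), while the domain of 7244 bp that touched *Tdrd1* did not hold its start. Among 30 genes of meiotic recombination and synapsis 1 was overlapped (3.33%), near the share of all protein-coding genes. This was *Mlh3*, which acts in crossover resolution, by a domain of 6759 bp with 32.7% under WT peaks. Of 29 SWI/SNF subunit genes 2 were overlapped (6.90%), *Bicral* by 2 domains and *Arid1a* itself by 1 of 6071 bp at its start (fold 16.2, 3 WT peaks, 71.0%). A peak list does not show whether an exon was deleted, so this domain checks nothing about the floxed allele.

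Of 27 hosts of structured noncoding RNAs and nuclear long noncoding RNAs 1 was overlapped (3.70%). The background was 2.75% of protein-coding and 1.56% of long noncoding genes. The gene was *Neat1*, the paraspeckle scaffold RNA, overlapped by a domain of 10432 bp that WT peaks covered by 43.6%. No domain overlapped any of 50 developmental homeobox and polycomb target genes, 37 cytosolic ribosomal protein genes, 28 imprinted genes, 15 spermatogonia markers or 22 testis somatic cell markers. With 2.75% of all autosomal protein-coding genes overlapped, a count of 0 in lists this short does not show that domains are scarcer there. All 37 ribosomal protein genes had a promoter peak in both lists, so narrow peaks were there. As a check of the cell label, all 12 pachytene marker genes had a promoter peak in both lists. Somatic markers had one at 8 of 22 genes in the cKO list and 5 of 22 in the WT list, and spermatogonia markers at 8 and 5 of 15. For comparison, the cKO list had such a peak at 12046 and the WT list at 10687 of the 20807 autosomal protein-coding genes. The counts of these short lists were not tested.

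Most domains stood alone, but some followed one another. With gaps of at most 10 kb, a distance chosen after the values were seen, domains formed 405 runs. Of these, 354 were single domains and 51 held 2 or more (128 domains). No such count is given for other cKO peaks, so the runs have no background. The longest run, chr17:30621415-30885261, spanned 264 kb with 9 domains of 15.8 to 62.5 kb that filled 97.3% of it. It contained *Dnah8*, 97.2% of whose 253 kb gene body lay in domains, and 19 of its 20 annotated start positions. In the same stretch the WT list had 62 peaks, with a median width of 1526 bp, that covered 76.0%. Of these, 11 were at least 5000 bp wide, up to 17.4 kb, and they held 122 of the 201 kb under WT peaks. The cKO list gave the region as 9 domains and 2 narrower peaks, and the WT list as 11 wide peaks and many narrow ones. An antisense long noncoding gene, *AC174471.1*, runs through the region, and ATAC-seq carries no strand.

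**Figure D4:**
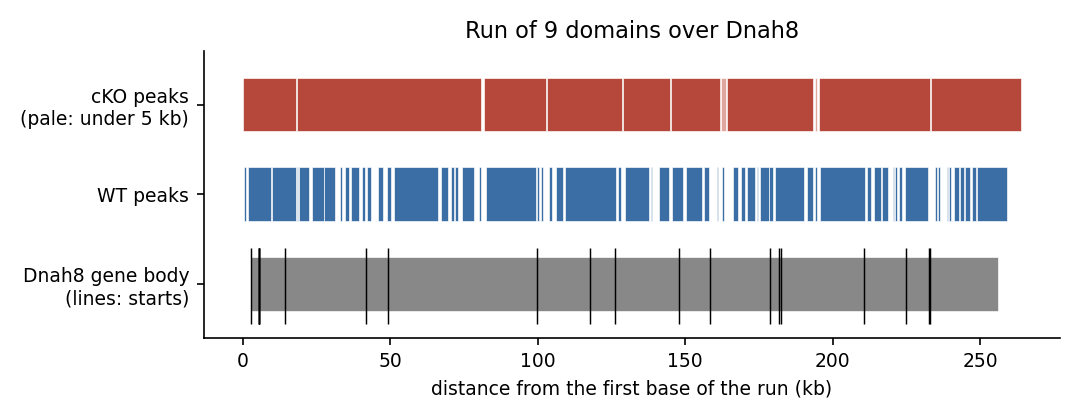
Peaks over the run of 9 domains at *Dnah8*, drawn to scale as distance in kb from the first base of the run: cKO domains (red) and cKO peaks under 5 kb (pale), WT peaks (blue) and the gene body with its annotated starts (grey, black lines). The 9 domains fill 97.3% of the 264 kb and the 62 WT peaks 76.0%.

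The 4 next runs by number of domains had 4 or 5 domains each. One of 77.7 kb on chr2 held *Chst1*, a sulfotransferase gene, *Gm13817*, *Mir7221* and *Mir7222*, with 82.4% in domains and 41.1% under WT peaks. A run of 70.1 kb on chr7 held *Gm10619*, *Gm21269* and *Fam174b* (92.3% against 56.1%). A run of 65.1 kb on chr9 held *C2cd4b* and *M5C1000I18Rik* (85.8% against 50%), and another of 52.1 kb lay over *Cyp19a1*, the aromatase gene (77.0% against 51.4%). Among runs of 3 domains, that of *Cwc22* had 99.2% of its 82.1 kb in domains and 56.9% under 26 WT peaks, and *Cwc22* lay in them for 99.0% of its length. The spans in domains were set by the rule, while the WT shares were not.

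Median GC content was lowest in the widest domains, while median fold was close in all width groups. From 5 to 7.5 kb (271 domains), 7.5 to 10 kb (112), 10 to 20 kb (75) and 20 kb or more (24), median GC content was 53.1, 52.7, 50.9 and 46.8%. The interval of the widest group (46.0 to 48.1) lay apart from that of the first (52.1 to 53.6). The median fold was 13.6, 15.3, 13.6 and 13.3. A long noncoding gene was overlapped by 25.1, 25.9, 45.3 and 54.2%, and 2 or more WT peaks lay below 62.0, 72.3, 93.3 and 100%. Width itself favours both measures. A long noncoding start was inside 20.3, 18.8, 32.0 and 33.3%. The single gene *AC174471.1*, which runs through the *Dnah8* region, was overlapped by 10 domains. WT coverage was close in the 4 groups, at 66.5, 68.8, 67.2 and 71.4%. The 24 widest domains came from 17 runs, 6 of them from the *Dnah8* run, so they are fewer independent regions than domains.

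**Figure D5:**
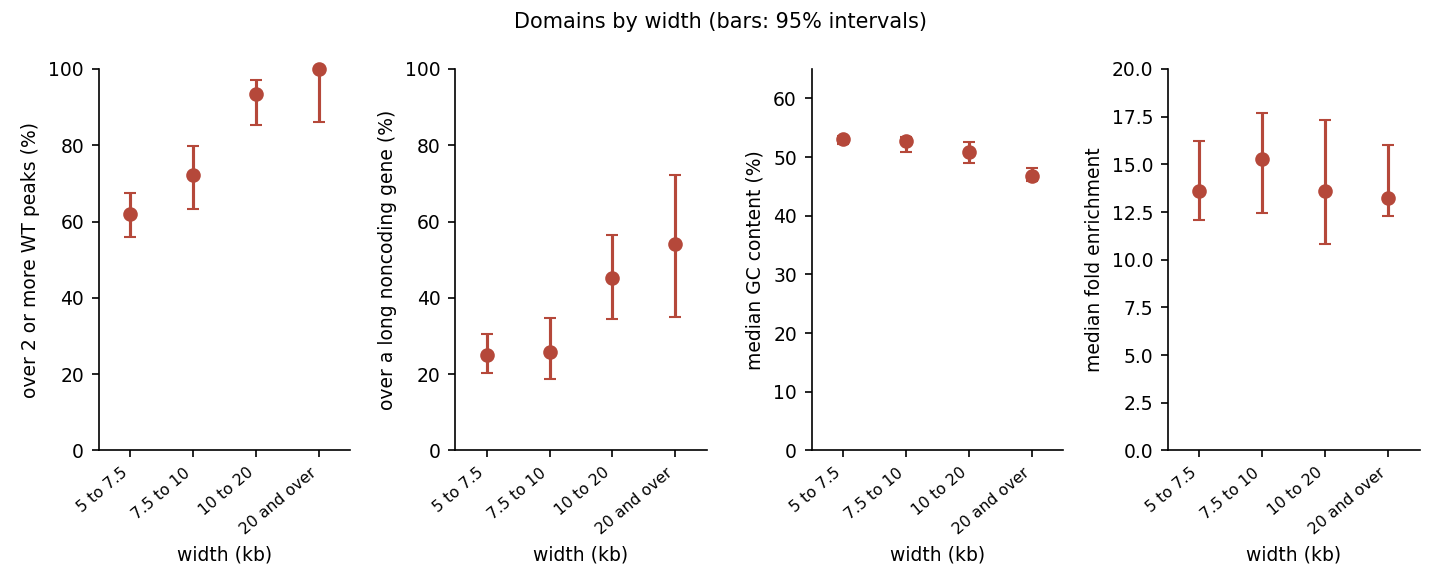
Domains of 5 to 7.5 kb (n = 271), 7.5 to 10 kb (n = 112), 10 to 20 kb (n = 75) and 20 kb and over (n = 24): share over 2 or more WT peaks, share over a long noncoding gene, median GC content and median fold enrichment, with 95% intervals (Wilson for shares, order statistics for medians). GC content is 53.1% in the first group and 46.8% in the last, while the medians of fold lie between 13.3 and 15.3.

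The domains were richer in GC than the DNA beside them. Median GC content was 52.3% (51.5 to 52.9), against 48.0% in the 5 kb on each side, and it was above the flanks in 423 of the 482 domains (87.8%, 84.5 to 90.4). It was below the 54.0% of all autosomal cKO peaks and the 54.5% of those from 2 kb to under 5 kb. The ratio of observed to expected CpG had a median of 0.310 in domains, 0.219 in their flanks and 0.537 in the peaks from 2 kb to under 5 kb. A ratio of at least 0.6, a level typical of CpG islands, was reached by 29 domains (6.02%), against 31.5% of all autosomal cKO peaks, each averaged over the whole interval. Repeats were masked over a median of 15% of a domain and 25.2% of its flanks.

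Placement was uncertain for a small set. In 30 domains under 50% of the 50-mers were unique, 11 of them on chr4, and WT peaks covered a median of 92.6% of these. At least 50% were unique in 93.8% of domains, 91.1% of all autosomal cKO peaks and 95.2% of those from 2 kb to under 5 kb. Without them 73.5% of domains lay over 2 or more WT peaks. None of the 10 widest domains was among them.

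By chromosome, domains were most frequent on chr11 (55 domains, 0.451 per Mb) and chr17 (41, 0.432 per Mb) and least on chr1 (12, 0.0614 per Mb). As a share of the cKO peaks of a chromosome they ran from 0.738% on chr1 to 2.57% on chr17. The WT list had 20 peaks of at least 5000 bp on chr17 and 2 on chr1, so both lists placed more of them on chr17 than on chr1. The *Dnah8* run alone held 11 of those 20 WT peaks and 9 of the 41 domains of chr17. On chr11 the WT list had 9, fewer than on chr7 (16) or chr5 (14), so there the lists differed.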

How the data were processed

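ATAC-seq libraries (Omni-ATAC, 4 per genotype) were made by the authors from cryopreserved pachytene spermatocytes. Per the labels and methods, the authors trimmed adapters with Trim Galore, aligned paired reads to mm10 with Bowtie2, removed duplicates with Picard and mitochondrial reads, used MACS2 on each library with no local lambda, filtered peaks against the blacklist and took overlaps across the libraries of a genotype with bedtools. The deposited file of each genotype is 1 peak list. Its deposited columns were a fold enrichment (a linear ratio), a −log10 q value, a −log10 p value and a score, both of which were not used here, and a summit offset (unit other).

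Rows were collapsed by peak name. A peak was wide from 5000 bp, and sharing 1 bp counted as overlap. Genes, biotypes and starts came from GENCODE vM21 and sequence from RefSeq GRCm38.p6, the build of mm10, and no peak ran past a chromosome end. Starts were called protein-coding or long noncoding by the type of the gene, whatever the type of the transcript. Promoter peaks reached from 1000 bp before to 100 bp after a start. Unique 50-mers, sampled every 25 bp, occurred once in the genome on either strand. Calculations used Python 3.11.15, numpy 2.4.6, pandas 2.3.3 and scipy 1.17.1, and the functions were tested on simulated data. Shares have 95% Wilson intervals and medians order-statistic intervals. Depth is known only through the background of the 2 reference libraries.

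Named domains were the 10 widest, the 10 with the highest −log10 q, the 10 with the lowest WT coverage, the 5 over the most WT peaks, the 10 widest with long noncoding genes only, the 3 on each side of the threshold, and those over a gene of 11 lists. A domain is called by a gene it overlaps or by the gene whose start is nearest its summit. The members and lists were chosen with earlier results of these data known.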

Additional observations from a re-analysis of the deposited data

Results flagged for a closer look

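Peaks of at least 5000 bp also occurred on X and Y, which the autosomal domains leave out, and were drawn to attention because the cKO list held more of them than the WT list. On X there were 21 in the cKO list against 11 in the WT list, which is 1.78% of the cKO peaks and 1.78% of the WT peaks of that chromosome. On Y there were 20 against 9, or 3.94% and 2.60%. Nothing was tested, as each genotype has 1 list.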

How the results depend on the processing

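Of 60 alternative values, 42 stayed within the interval of the reported value or within 1.5 times a count, and 18 moved. The number of domains was 760 at 4000 bp and 181 at 8000 bp. The share over 2 or more WT peaks was 61.8% at 4000 bp, 78.0% at 6000 bp, 85.1% at 8000 bp, 58.7% with only peaks on 3 or more rows in both lists and 19.4% with a −log10 q of at least 10 in both. The last 2 alternatives put 1.87% and 12.8% of domains over no WT peak, and they remove WT peaks by construction. Median WT coverage was 64.4% at 4000 bp, 50.2% with a −log10 q of at least 10 and 71.7% in the 346 domains with a stretch of at least 5000 bp in all 4 cKO libraries, an alternative chosen after seeing the data. Long noncoding genes were overlapped by 38.7% at 8000 bp, 22.4% with a start inside required and 12.2% without genes that overlap protein-coding genes. A start was inside 81.2% at 8000 bp and 58.9% with protein-coding transcripts only. Median GC content was 51.1% at 8000 bp. The cause of the other moves was not tested. No paired analysis was possible because each genotype has 1 list without columns per library, and for the same reason no replicate could be left out. The lists carry no read counts, so the precision of a width could not be given.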
